A study of Mus musculus with 6 samples.

Results

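The 10 genes described here are transcription factors that build and maintain the megakaryocyte and erythroid branches of the bone marrow, the branches that make platelets and red cells. They are Gata1, Gata2, Zfpm1, Gfi1b, Tal1, Lyl1, Fli1, Runx1, Nfe2 and Klf1. They were taken by name from the 43346 genes of the deposited count table, and each name was found in 1 row. All 10 passed the filter on low counts, with 18757 genes tested in all. Gene counts came from RNA of the distal femur of C57BL/6 mice, an inbred laboratory strain, aged 4 months. The right femur received a single image-guided X-ray dose of 24 Gy over 5 mm of the distal metaphysis, the marrow-rich end of the shaft, and the left femur received none. Bone pieces were taken on day 21, before the bone loss that was seen on day 28, and gave 3 radiated and 3 non-radiated libraries. The non-radiated femurs belong to animals that were radiated in the other leg, so they are not a measure of untreated mice. Muscle was cut away before RNA extraction. The labels name no transgene and no agent other than the beam. They do not say whether libraries of a group came from separate mice, so p-values measure the spread between these libraries.

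Megakaryocytes and red cells descend from a shared progenitor, and a small set of DNA-binding proteins that work in shared complexes directs both. As background, GATA2 acts in stem cells, early progenitors and mast cells and is replaced by GATA1 as cells mature. GATA1 works with its partner FOG1, the product of Zfpm1, and with a complex of TAL1 or LYL1 that binds E-box letters. RUNX1, FLI1 and NF-E2 drive megakaryocyte and platelet genes, whereas KLF1 drives haemoglobin and other red cell genes. GFI1B is a repressor needed in both branches. Several of these genes are also active elsewhere: Fli1, Tal1 and Lyl1 in endothelium, Gata1 in eosinophils and mast cells, and Runx1 and Fli1 in lymphocytes.

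Library totals ran from 34034251 to 48708383 counts. In non-radiated library 2 the single row AY036118 took 32.9% of the counts, against 0.321% to 5.61% elsewhere. The tissue holds cells of both branches: the summed level of 20 platelet and megakaryocyte genes was 1383 to 3442 CPM (counts scaled to library size, with edgeR's TMM factors), and that of 23 erythroid genes was 30665 to 37195 CPM. Skeletal muscle genes varied between libraries, with a summed level of 10 markers at 148 to 307 CPM in the non-radiated libraries and at 703, 2149 and 169 CPM in radiated libraries 1, 2 and 3. All 10 had an unadjusted p under 0.05 upward (median 2.25 on the log2 scale), and 0 were called by edgeR or DESeq2. EdgeR called 8 of them with the replicate block, 10 with no filter, 10 under library totals alone, 9 without radiated library 3 and 1 without radiated library 1. Without radiated library 2 their median was 1.04. In a bulk sample, fewer cells of a type and less RNA per cell cannot be told apart.

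The factors act on each other's genes through GATA, ETS, RUNX, E-box and KLF letters, so the promoters of the members are shown where they help to read the values. RefSeq windows (GRCm38.p6) were matched for 8 of the 10 members, as 11 windows, because Gata2, Tal1 and Runx1 have a pair each. The bases before the start site were searched on both strands for 6 motifs. GATA letters, taken as GATA after adenine or thymine and before adenine or guanine, were in 3 of the 11 windows and in 26.5% of all 32851 windows of 250 bases. ETS letters, spelled GGAAGT, were in 1 window (Zfpm1) and in 19.7% of all. For RUNX factors the letters searched were TGTGGT, found in 1 window and in 14% of all. E-box letters, spelled CAGATG or with the inner pair changed to give CAGCTG, were in 0 windows and in 25.5% of all. The KLF letters CCACACCC were in 0 windows and in 3.2% of all, and the AP-1-like letters TGAGTCA that NF-E2 sites contain were in 0 windows and in 4.46% of all. The GATA match and the RUNX match of Klf1 share no bases. Shown first is the outer window of Gata2, the member with the largest difference between groups. It is followed by the windows of Tal1, Gfi1b and Klf1, which hold GATA letters. Each is read 5′ to 3′ on the strand of the gene, and capitals mark the motif letters. The gene counts do not tell which start site was used.
Gata2, chr6:88193641-88193890, plus strand: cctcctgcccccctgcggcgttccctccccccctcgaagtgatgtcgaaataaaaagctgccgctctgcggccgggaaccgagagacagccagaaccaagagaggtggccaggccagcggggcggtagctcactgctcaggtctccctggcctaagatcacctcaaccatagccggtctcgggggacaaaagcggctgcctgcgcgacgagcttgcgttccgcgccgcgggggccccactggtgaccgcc
Tal1, chr4:115056176-115056425, plus strand: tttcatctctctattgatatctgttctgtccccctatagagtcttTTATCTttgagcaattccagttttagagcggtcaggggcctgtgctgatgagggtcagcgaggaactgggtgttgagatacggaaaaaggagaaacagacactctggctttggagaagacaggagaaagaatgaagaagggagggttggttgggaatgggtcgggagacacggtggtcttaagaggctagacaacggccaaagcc
Gfi1b, chr2:28621983-28622232, minus strand: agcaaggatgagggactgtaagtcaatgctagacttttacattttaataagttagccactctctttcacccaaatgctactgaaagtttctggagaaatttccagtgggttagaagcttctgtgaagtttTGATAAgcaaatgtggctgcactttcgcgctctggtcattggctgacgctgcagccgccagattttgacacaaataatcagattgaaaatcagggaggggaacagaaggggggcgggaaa
Klf1, chr8:84901732-84901927, plus strand: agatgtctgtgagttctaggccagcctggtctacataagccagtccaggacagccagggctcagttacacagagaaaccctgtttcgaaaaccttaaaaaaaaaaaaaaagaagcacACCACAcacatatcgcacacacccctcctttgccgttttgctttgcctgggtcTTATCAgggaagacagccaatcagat

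The Gata2 stretch held none of the motif letters, which says only that these letters are not in this window. The GATA letters began 205 bases before the start site in Tal1, 120 bases before it in Gfi1b and 80 bases before it in Klf1. The Klf1 stretch is 196 bases long, since it ends where the table places the start of the gene, and RUNX letters also began in it, 133 bases before the RefSeq start. Over the same 196 bases 22.8% of all windows held GATA letters and 11.4% held RUNX letters. A match is a description and not a binding site.

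The radiated femurs had a lower mean of each of the 10 factors, and 1 factor passed the test, or 3 (Gata1, Gata2 and Nfe2) where the replicate number entered as a block. Gata2 fell to 0.66 of its non-radiated level (95% interval 0.57 to 0.77). The other 9 had ratios from 0.82 for Gata1 to 0.97 for Runx1. By edgeR's quasi-likelihood test at a Benjamini-Hochberg adjusted p under 0.05, 1 of the 10 was called lower, against 3.24% of all genes tested, and 0 of 10 were called higher, against 4.56% of all genes tested. With the replicate block 3 were called lower and 0 higher, against 3.39% and 5.51% of all genes tested. At an unadjusted p under 0.05 there were 5 lower and 0 higher, against 9.34% and 12.2% of all genes tested. DESeq2 called 5 lower and 0 higher, against 4.55% and 5.78%. The median log2 fold change of the 10 was -0.19, beside 0.00 over all genes tested. For 5 factors (Gata1, Gata2, Tal1, Fli1 and Nfe2) each radiated library was below each non-radiated one, where 11.5% of all genes tested were separated downward and 14.4% upward. Between factors the 95% intervals on the log2 scale had lower ends from -0.81 (Gata2) to -0.16 (Runx1) and upper ends from -0.38 (Gata2) to 0.18 (Klf1). With library totals as the only scaling the median of all genes moved to 0.19, and the signs of Zfpm1, Gfi1b, Lyl1, Runx1 and Klf1 turned positive. That scaling ended the call of Gata2 (log2 fold change -0.40, edgeR adjusted p 0.519). With the rows AY036118 and Gm26917 left out of the totals the median of all genes was 0.03. Gata2 was then called (log2 fold change -0.57, edgeR adjusted p 0.00679). Zfpm1, Gfi1b, Lyl1, Runx1 and Klf1 were then at -0.04, -0.15, -0.07, -0.01 and -0.02.

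**Figure D1:**
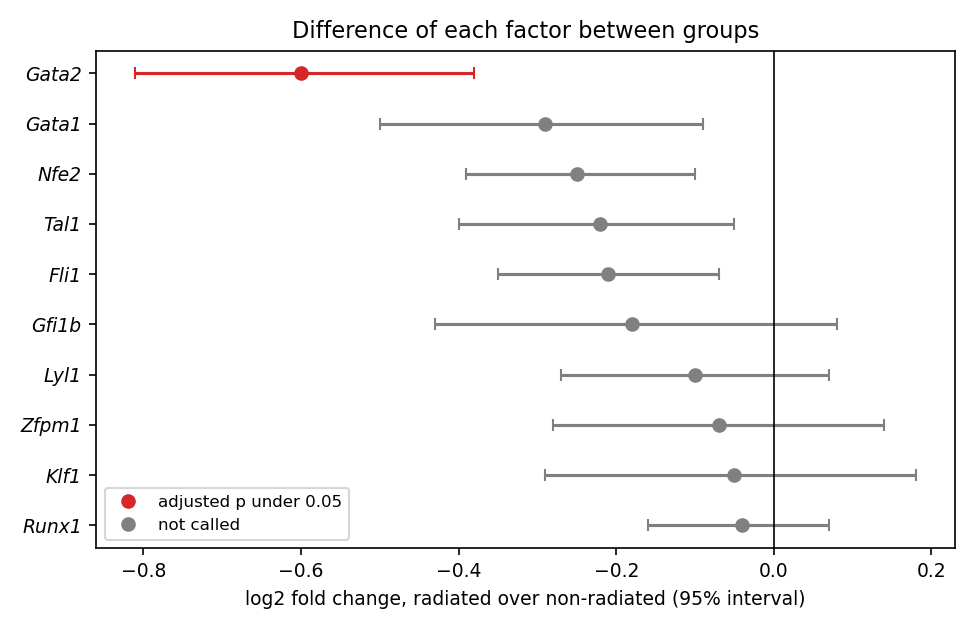
Difference of each factor between the 3 radiated and 3 non-radiated libraries: the x axis is the log2 fold change from edgeR and the bars are its 95% interval. In this fit, which has no replicate block, Gata2 (red) was the factor called. The intervals of Gata1, Nfe2, Tal1 and Fli1 also lay below 0 without passing the adjusted threshold. With the replicate number as a block Gata1 and Nfe2 were called as well.

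Within the GATA pair the 2 proteins share closely related zinc fingers but differ in when they act. Gata2 (ENSMUSG00000015053, chromosome 6, 88193891 to 88207030) was at 14.1, 16.0 and 15.7 CPM in non-radiated libraries 1, 2 and 3. In radiated libraries 1, 2 and 3 it was at 9.30, 10.6 and 10.4 CPM. Every radiated library lay below every non-radiated one, and between libraries of the same number the log2 difference was -0.60 each time. The means were 15.3 ± 1.03 CPM and 10.1 ± 0.687 CPM (SD, n = 3 each), with a log2 fold change of -0.60, SE 0.09 and an edgeR adjusted p of 0.00542. The call was kept in 15 of 16 alternative settings, all but library totals alone, with adjusted p from 1.08e-05 to 0.519 over the settings.

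Gata1 (ENSMUSG00000031162, chromosome X, 7959260 to 7978071) was at 88.3, 95.9 and 89.0 CPM in the non-radiated libraries, in order of their number. It was at 70.2, 85.9 and 66.3 CPM in the radiated libraries. The groups did not overlap, but radiated library 2 came close to the non-radiated range. The log2 fold change was -0.29 (SE 0.09, 95% interval -0.50 to -0.09), and the edgeR adjusted p of 0.0902 missed the threshold. With the replicate number as a block it was 0.0289 at a log2 fold change of -0.30. Without radiated library 2 the log2 fold change was -0.41 and the adjusted p 0.00763. With that library kept, the adjusted p was 0.0251 with no filter and 0.0153 by DESeq2's Wald test. Over the 16 alternatives Gata1 was called in 6, with adjusted p from 0.00433 to 0.846. With the level of skeletal muscle genes as a covariate, which is highest in radiated library 2, the log2 fold change was -0.47 and the adjusted p 0.00433. The part of muscle RNA was otherwise not tested.

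Zfpm1 encodes FOG1, the cofactor that GATA1 needs in both branches. Zfpm1 (ENSMUSG00000049577, chromosome 8, 122282141 to 122337251) was at 113, 123 and 134 CPM in the non-radiated libraries and at 110, 135 and 109 CPM in the radiated libraries. The groups overlapped, with the highest value in radiated library 2. Its log2 fold change was -0.07 (95% interval -0.28 to 0.14, edgeR adjusted p 0.745). Zfpm1 overlaps Gm20388 in the table (13737 counts in all, against 29105 for Zfpm1), and since the use of strand in counting is not given in the sources used here its level is uncertain.

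Gfi1b, the repressor, lies at chromosome 2, 28609450 to 28621982 (ENSMUSG00000026815). It was at 45.5, 55.9 and 55.6 CPM in the non-radiated libraries and at 45.4, 53.2 and 40.0 CPM in the radiated libraries. The groups overlapped, and the largest gap was between the libraries numbered 3. The log2 fold change was -0.18 with a 95% interval from -0.43 to 0.08 (edgeR adjusted p 0.425), the widest interval among the 10.

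The bHLH pair Tal1 and Lyl1 encode related proteins that can stand in for each other in blood stem cells. Tal1 (ENSMUSG00000028717, chromosome 4, 115056426 to 115071755) was at 184, 206 and 190 CPM in the non-radiated libraries and at 150, 182 and 165 CPM in the radiated ones. The groups did not overlap, by a margin that was small between non-radiated library 1 and radiated library 2. Tal1 had an edgeR adjusted p of 0.125 at a log2 fold change of -0.22 (SE 0.08). DESeq2's Wald test called it, at an adjusted p of 0.0429. Lyl1 (ENSMUSG00000034041, chromosome 8, 84701457 to 84704715) was at 49.2, 54.5 and 57.0 CPM against 52.2, 51.1 and 46.7 CPM in the radiated libraries. Its groups overlapped, with a log2 fold change of -0.10 (95% interval -0.27 to 0.07, edgeR adjusted p 0.491). Lyl1 overlaps Nfix in the table and carries the same uncertainty as Zfpm1.

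Of the factors that drive megakaryocyte genes, Nfe2 and Fli1 were separated between groups and Runx1 was not. Nfe2 (ENSMUSG00000058794, chromosome 15, 103248212 to 103258403), the blood-specific subunit of NF-E2 that platelet release depends on, was at 171, 199 and 187 CPM in the non-radiated libraries. It was at 152, 164 and 153 CPM in the radiated libraries, each below the lowest non-radiated value. The log2 fold change was -0.25 (SE 0.07), and the edgeR adjusted p of 0.0549 just missed the threshold. The replicate block gave 0.0397, and leaving out non-radiated library 1 gave 0.0351. Over the 16 alternatives Nfe2 was called in 5, with adjusted p from 0.00760 to 0.928.

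Fli1 (ENSMUSG00000016087, chromosome 9, 32422204 to 32542861), an ETS factor of megakaryocytes and endothelium, was at 93.3, 102 and 91.5 CPM against 83.4, 78.0 and 86.7 CPM in the radiated libraries. The groups did not overlap, and radiated library 2 was the lowest here, not the highest. Fli1 missed the threshold in edgeR (adjusted p 0.0798) and passed it in DESeq2 (0.0424), at a log2 fold change of -0.21. Fli1 overlaps 6 small transcripts in the table, of which RP24-88B13.7 had 10231 counts against 21023 for Fli1. Runx1 (ENSMUSG00000022952, chromosome 16, 92601466 to 92826149), which acts from the stem cell onward, was at 192, 184 and 182 CPM against 183, 174 and 184 CPM. The groups overlapped, and the 95% interval of the log2 fold change, -0.16 to 0.07, was the narrowest of the 10.

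Klf1, the factor of the red cell branch alone, gave no detectable difference. Klf1 (ENSMUSG00000054191, chromosome 8, 84901928 to 84905295) was at 52.4, 52.9 and 55.3 CPM in the non-radiated libraries. In the radiated libraries it was at 46.0, 61.5 and 47.4 CPM, so that radiated library 2 lay above all of the non-radiated libraries and the other two lay below. Klf1 had a log2 fold change of -0.05 with a 95% interval from -0.29 to 0.18 (edgeR adjusted p 0.835). Its sign was not stable, at 0.02 without radiated library 1 and 0.01 without radiated library 3.

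**Figure D2:**
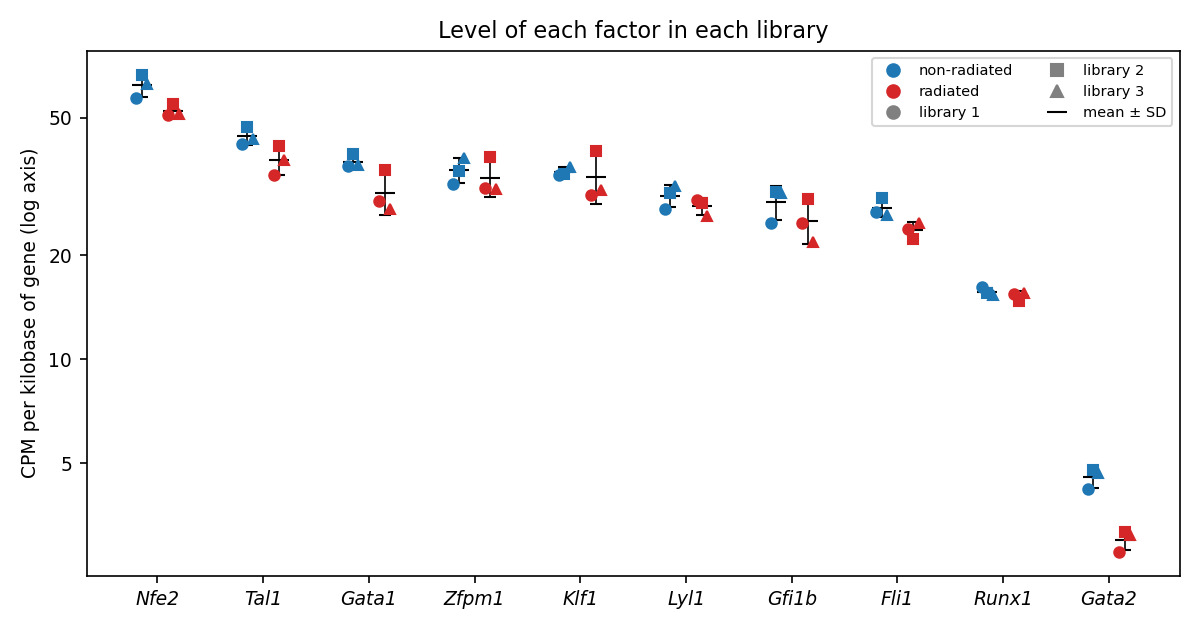
Level of each factor in each library, in CPM per kilobase of gene on a log axis, with the non-radiated libraries in blue, the radiated in red, a marker shape for each library number and the mean ± SD (n = 3) in black. Nfe2 was the highest and Gata2 the lowest in both groups, and the factors from Tal1 to Fli1 lie between 21.9 and 47.0.

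Levels of the factors can be set beside each other once divided by the deposited gene length, with limits. That length, 11827 bases for Runx1 and 2988 for Nfe2, need not be that of the transcripts in use. Before the division Runx1 and Nfe2 both had a mean of 186 CPM in the non-radiated libraries. The levels of Zfpm1, Lyl1 and Fli1 are uncertain because of their overlaps with other rows. In the non-radiated libraries Nfe2 was the highest, at 62.1 ± 4.62 CPM per kilobase, and Tal1 followed at 44.2 ± 2.56 (SD, n = 3 each). Gata1 (37.3 ± 1.72), Zfpm1 (32.3 to 38.3) and Klf1 (34.9 ± 1.03) had ranges that overlapped from neighbour to neighbour. So did Lyl1 (29.8 ± 2.22), Gfi1b (28.6 ± 3.22) and Fli1 (27.4 ± 1.61), which lay below them. Runx1 (15.7 ± 0.429) and Gata2 (4.56 ± 0.309) stood apart from all others. In the radiated libraries Nfe2 (52.4 ± 2.16), Runx1 (15.3 ± 0.464) and Gata2 (3.01 ± 0.205) held the same places, and the 7 from Tal1 to Fli1 formed a chain of overlapping ranges in which Klf1 and Zfpm1 ranked above Gata1.

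The libraries numbered 2 held the highest values of several factors in both groups. Of the 10 factors 7 were highest among the radiated libraries in library 2, and 2 (Fli1 and Runx1) were lowest there. Among the non-radiated libraries 6 were highest in library 2. Without both libraries numbered 2 the count of factors called lower was 2, Gata1 and Gata2, with an edgeR adjusted p of 0.0298 for Gata1 and 0.0355 for Gata2.

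Ratios of the factors within a library do not depend on scaling, and they set the factors beside Gata1. Gata2 counts were 16.0%, 16.7% and 17.7% of Gata1 counts in the non-radiated libraries and 13.2%, 12.3% and 15.7% in the radiated libraries, lower in each radiated library. Klf1 counts were 59.4%, 55.2% and 62.2% of Gata1 counts against 65.5%, 71.6% and 71.4%, higher in each radiated library. Zfpm1 counts were 128%, 128% and 151% of Gata1 counts against 157%, 157% and 164%. These 3 ratios of the 9 to Gata1 had no overlap between groups. Their two-sided exact permutation p was 0.1, the smallest that 20 labelings allow, and 0.300 after adjustment over the 9. Gata1 was itself lower in each radiated library than in any non-radiated one, so a gene of unchanged level rises against it. The share of all genes with no overlap against Gata1 was not computed. Log2 differences of the 9 ratios ran from -0.30 (Gata2) to 0.26 (Runx1), and 3 libraries against 3 cannot bring such a p under 0.1.

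Genes of platelets and megakaryocytes, many of them textbook targets of these factors, fell in radiated femurs. All 20 genes of a platelet and megakaryocyte list were called lower; their log2 fold changes had a median of -1.40 and a range from -1.63 to -0.54. Rab27b, a transport protein of platelet granules, was at 91.6, 83.4 and 79.9 CPM in the non-radiated libraries and at 27.1, 29.3 and 27.6 CPM in the radiated libraries (log2 fold change -1.60, edgeR adjusted p 5.94e-06). Itga2b, an integrin chain and a textbook target of GATA1 and FLI1, Clec1b, a receptor, and Tubb1, the platelet beta-tubulin controlled by NF-E2, had log2 fold changes of -1.41, -1.45 and -1.47, all called. For all 10 factors the lower end of the 95% interval lay above the list's median of -1.40. The median of all genes tested was 0.00, and 3.24% of them were called lower, so this position is not particular to the factors. The share of all genes with such an interval was not computed.

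Set against the summed counts of that list in the same library, each factor was higher in each radiated library than in any non-radiated one. Gata1 counts were 2.59%, 2.78% and 2.63% of the list's counts in the non-radiated libraries and 4.78%, 5.61% and 4.80% in the radiated libraries. Nfe2 counts were 5.02%, 5.78% and 5.52% against 10.4%, 10.7% and 11.1%. The ratio was 1.54 times as high in radiated femurs for Gata2, the least, and 2.27 times for Runx1, the most. All 10 ratios had an exact permutation p of 0.1, which is the smallest these libraries allow, also after adjustment over the 10. Of the list's counts Itgb3 held 18.0% to 20.9%, Thbs1 15.8% to 20.2% and Plek 13.7% to 17.0%. These genes had log2 fold changes of -1.09, -0.96 and -1.03, against a list median of -1.40. The sum is thus weighted to genes that fell less than the median. The choice of this denominator was made after the values were seen. The list's summed level was 3380 to 3442 CPM in non-radiated and 1383 to 1530 CPM in radiated libraries. A gene of unchanged level also rises against such a denominator, so these ratios do not set the factors apart from other genes. The share of all genes with no overlap against this list was not computed.

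**Figure D3:**
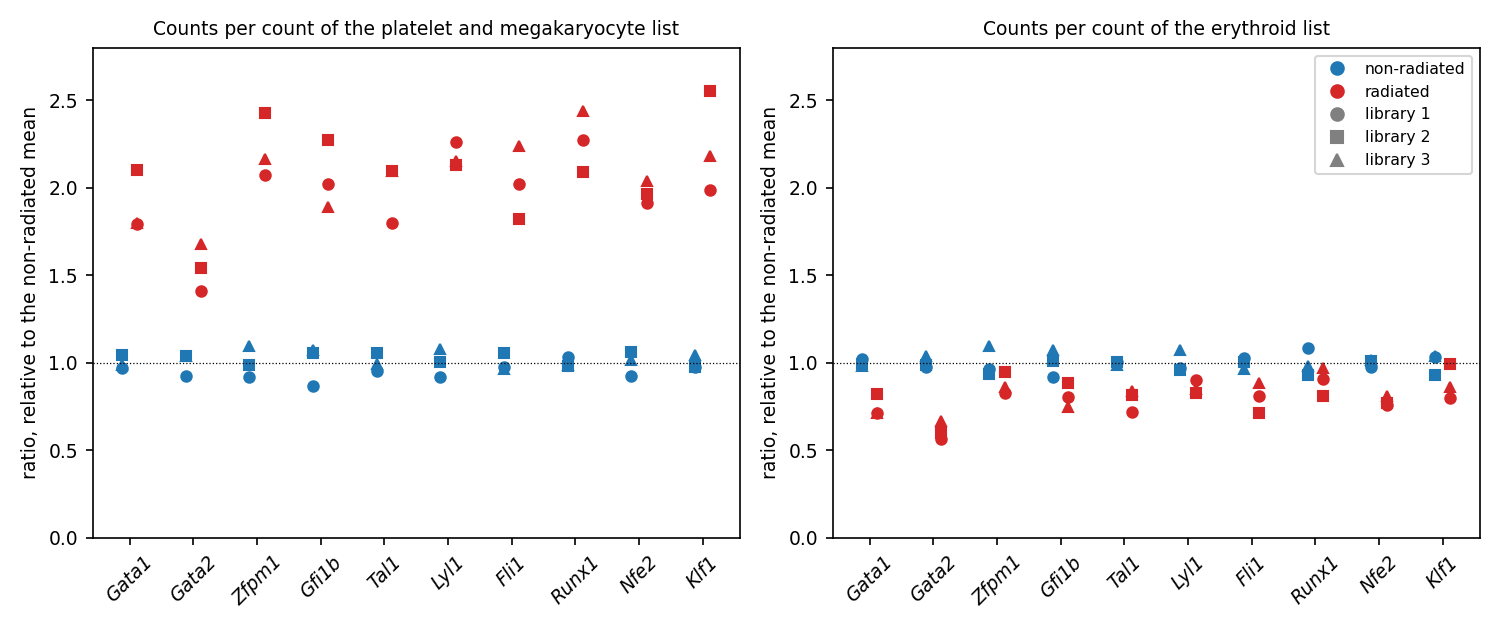
Counts of each factor divided by the summed counts of the platelet and megakaryocyte list (left) and of the erythroid list (right) in the same library, relative to the non-radiated mean; markers are single libraries, blue non-radiated and red radiated. All radiated libraries lie above the non-radiated ones on the left, where the mean ratios are 1.54 to 2.27, while on the right the mean ratios are 0.61 to 0.90 and the groups overlap for Zfpm1, Runx1 and Klf1. The denominator on the left was itself lower in the radiated libraries, so a gene of unchanged level also rises there. The denominator on the right was 30665 to 34368 CPM in non-radiated and 33053 to 37195 CPM in radiated libraries. Where it is higher, a gene of unchanged level falls.

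The erythroid list had a single call. Of 23 genes tested 1 was called higher and 0 lower by edgeR, and their median was -0.11 on the log2 scale; at an unadjusted p under 0.05 there were 3 higher and 3 lower, and DESeq2 called 3 higher and 1 lower. Of the 19 genes of the list that are not haemoglobin genes 18 had a negative value and 0 were called, with a median of -0.12. Under library totals alone the median of the whole list was 0.10, where that of all genes tested was 0.19. Hba-a2, an alpha-globin gene, was at 2495, 2523 and 2657 CPM against 2959, 3448 and 3359 CPM in the radiated libraries (log2 fold change 0.35, edgeR adjusted p 0.0499), and its copy Hba-a1, which can share reads with it, had a log2 fold change of 0.33 (adjusted p 0.218). Hbb-bs, a beta-globin gene, had a log2 fold change of 0.33 (adjusted p 0.182) and Tfrc, the transferrin receptor, one of -0.23 (0.167). The 4 haemoglobin genes held 54.5% to 63.2% of the list's counts. The list had 0 calls when non-radiated library 1 or 2, or any of the 3 radiated libraries, was left out, so the call of Hba-a2 rests on each of these.

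Against the summed erythroid counts the factors were lower in radiated femurs, with ratios from 0.61 times for Gata2 to 0.90 times for Runx1 and no overlap for 7 of 10. Without the haemoglobin genes in the denominator the ratios ran from 0.70 (Gata2) to 1.03 (Runx1), with no overlap for 4, which were Gata1, Gata2, Tal1 and Nfe2. Klf1 counts were then 0.376%, 0.347% and 0.398% of the other erythroid counts against 0.358%, 0.424% and 0.361%, and the groups overlapped. Gata2 counts were 0.101%, 0.105% and 0.113% against 0.0723%, 0.0729% and 0.0793%. The exact permutation p of those 4 was 0.1, and 0.250 after adjustment over the 10. The share of all genes with no overlap against either erythroid denominator was not computed. The whole list's summed level was 30665 to 34368 CPM in non-radiated and 33053 to 37195 CPM in radiated libraries. Where that sum is higher, a gene of unchanged level falls against it. The ratios to the whole list thus do not set the factors apart from other genes. Both erythroid denominators were chosen after values were seen.

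**Figure D4:**
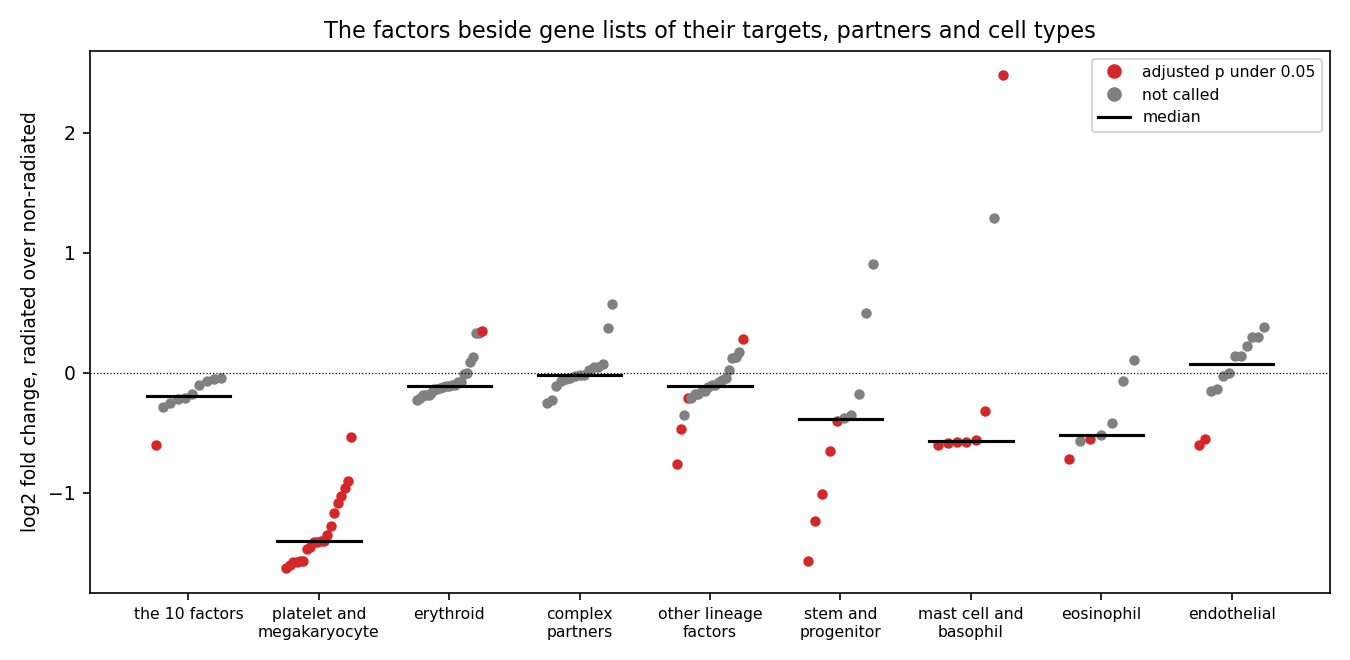
Log2 fold change of each tested gene, radiated over non-radiated, for the 10 factors and for gene lists of their targets, partners and cell types; each point is a gene, red where the edgeR adjusted p is under 0.05, and the black bars are medians. The platelet and megakaryocyte genes sit between -1.63 and -0.54, and the 9 factors not called sit between -0.29 and -0.04.

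Partners that join these factors in complexes gave no calls. Of 15 partner genes, among them Ldb1, Lmo2 and the E-proteins, edgeR called 0, and the median difference was -0.02 on the log2 scale. At an unadjusted p under 0.05 there were 2 higher and 2 lower, and DESeq2 called 1 higher and 2 lower. Lmo2, the adaptor between TAL1 and GATA1, was at 184, 203 and 175 CPM against 148, 166 and 157 CPM (log2 fold change -0.25, edgeR adjusted p 0.0639). Mafg, a small Maf protein that pairs with NF-E2, was at 172, 176 and 201 CPM against 148, 163 and 158 CPM (-0.23, adjusted p 0.0854). Tcf3, the E-protein partner of TAL1 that B cells also use, had a log2 fold change of 0.37 (adjusted p 0.0692) and Maff one of 0.57 (0.147). With the replicate block 2 partners were called, without non-radiated library 3 also 2, and with no filter 3.

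Among 20 other factors of stem cells and of both branches, 3 were called lower and 1 higher, with a median of -0.11. Meis1, a homeobox factor of stem cells and megakaryocytes, was at 18.2, 15.9 and 17.1 CPM against 9.72, 11.4 and 8.99 CPM (log2 fold change -0.76, edgeR adjusted p 0.00316). Etv6, an ETS repressor, fell by 0.21 on the log2 scale (0.0317), and Ets1, an ETS factor prominent in lymphocytes, rose by 0.28 (0.0182). Under library totals alone 0 of the 20 were called, and 2 without non-radiated library 1, non-radiated library 2 or radiated library 1. Of 12 tested relatives of the members by family, 1 was called, Runx2 of bone-forming cells, at -0.47 (0.00396), and Gata4, Gata6 and Nfe2l3 were under the filter with 1, 6 and 20 counts in all.

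Upstream receptors and kinases gave 3 calls of 9 tested, all lower. Kit, the stem cell factor receptor, and Jak2, a kinase that signals under cytokine receptors, had log2 fold changes of -0.40 and -0.33 (edgeR adjusted p 0.00454 and 0.00456). Il3ra had a log2 fold change of 0.38 (0.246).

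Mast cells and basophils also carry Gata2, and most of their tested markers were lower in radiated femurs. Of 8 tested genes 6 were called lower and 1 higher, and the list's summed level was 198 to 214 CPM in non-radiated and 138 to 159 CPM in radiated libraries. Prss34 and Mcpt8, proteases of basophils, and Ms4a2, a chain of the IgE receptor, had log2 fold changes of -0.60, -0.56 and -0.59 (edgeR adjusted p 0.00203, 0.0216 and 0.0123). Hdc, the enzyme that makes histamine, fell by 0.32 (0.0107). Cpa3, a mast cell protease, and Fcer1a were also called lower (log2 fold change -0.58 each, edgeR adjusted p 0.0307 and 0.0442). Cpa3 had means of 12.3 CPM in non-radiated and 8.20 CPM in radiated libraries. Tpsb2 and Cma1, other mast cell proteases, went the other way at low levels, with 52 and 71 counts in all. Cpa3, Fcer1a, Tpsb2, Cma1 and the rows under the filter are named after their values were seen. Tpsb2, a tryptase, was called higher (log2 fold change 2.48, edgeR adjusted p 0.0254) at 0.0236 to 0.381 CPM. Cma1, a chymase, had a log2 fold change of 1.29 (adjusted p 0.129). Mcpt4 and Tpsab1 were under the filter, with 49 and 5 counts in all. Of the 7 calls in this list 1 was left without radiated library 1 and 1 under library totals alone, and 4 without non-radiated library 1, non-radiated library 2 or radiated library 3.

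Stem and progenitor markers, the other setting of Gata2, summed to 229 to 240 CPM in non-radiated and 143 to 157 CPM in radiated libraries. Of 10 genes 5 were called lower and 0 higher (2 higher at an unadjusted p under 0.05, and 0 higher by DESeq2). Slamf1, Angpt1 and Flt3 had log2 fold changes of -1.24, -1.01 and -0.65, all called. Slamf1 is also active in megakaryocytes. Which of these cell types carried the change of Gata2 was not tested.

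Eosinophils carry Gata1, and of 7 eosinophil genes 2 were called lower and 0 higher, with 5 lower and 0 higher at an unadjusted p under 0.05 and 4 lower and 0 higher by DESeq2. Their summed level was 442 to 637 CPM in non-radiated and 323 to 404 CPM in radiated libraries, and most of it was Prg2, with means of 389 and 236 CPM. Epx and Prg2, granule proteins, had log2 fold changes of -0.55 and -0.72 (edgeR adjusted p 0.0105 and 0.0201), and Prg3 and Ear6 had log2 fold changes of -0.52 and -0.57 (0.0781 and 0.0914). The receptors Il5ra, Ccr3 and Siglecf, named after their values were seen, had log2 fold changes of 0.11, -0.07 and -0.42 (edgeR adjusted p 0.810, 0.823 and 0.176). The part of eosinophils in the level of Gata1 was not tested. Calls in this list numbered 4 of 7 without non-radiated library 3 and with the replicate block, and 1 when either of the first 2 non-radiated libraries, radiated library 1 or radiated library 3 was dropped.

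For Fli1, Tal1 and Lyl1 the endothelial list showed no shared direction. Of 12 genes 2 were called lower, Tek and Esam, at -0.60 and -0.55 (edgeR adjusted p 0.00325 and 0.00480), both of which are also active in blood stem cells. Cdh5 and Emcn, of vessel walls, had log2 fold changes of 0.30 and 0.38 (0.0585 and 0.107). The summed level was 443 to 487 CPM in non-radiated and 442 to 500 CPM in radiated libraries. B cell markers, of cells that carry Runx1, Fli1 and Lyl1, summed to 562 to 630 CPM against 901 to 1128 CPM, with 10 of 10 called higher; Igll1, Pax5, Vpreb1 and Cd79a rose by 1.07, 0.86, 1.12 and 0.76. The share of those cells in the level of the factors was not tested.

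Of the 15570 genes outside the 10 that had a mean of at least 1 CPM, the pattern of Gata2 over the 6 libraries was most like that of Ccdc92 (Pearson r 0.9969), Ppif (0.9947) and Rab37 (0.9915), and 190 genes had r above 0.95. The libraries fall into the radiated and non-radiated groups, which any gene with a group difference shares, so these values are a description. Ccdc92, Ppif and Rab37 had log2 fold changes of -0.93, -0.56 and -0.55.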

How the data were processed

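RNA of 6 femur libraries was measured by stranded mRNA sequencing, and the deposited table gives raw counts and RPKM per gene, per the file headers. Build mm10, bcl2fastq, STAR 2.5.2b, Subread and featureCounts are named in the submitters' processing notes; the annotation, the settings and the use of strand are not given in the sources used here. Counts, as deposited by the authors, entered edgeR 4.0.16 under R 4.3.3 (filterByExpr with minimum count 10 and minimum total 15, TMM, glmQLFTest with the group as the only term), with p-values adjusted by Benjamini-Hochberg over 18757 genes. RPKM deposited by the authors was not used in a test; levels per kilobase were computed from counts and the table's gene length. Intervals at 95% use edgeR's SE and degrees of freedom. Ratios of counts in a library (prior count 0.5 on the log2 scale) were set against each other by an exact two-sided permutation of the 20 labelings. These labelings ignore the pairing of libraries by number that is described below, and no paired permutation of the ratios was run.

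The 10 factors, the lists and the tests were chosen with earlier results of these data known. Of 163 list entries 162 were found, 1 by gene ID. Named were all 10 factors, up to 4 genes with the smallest p in each list, and the 3 genes most like each of up to 3 called factors. Tpsb2, Cma1, Mcpt4, Tpsab1, Cpa3, Fcer1a, Il5ra, Ccr3, Siglecf, Itgb3, Thbs1, Plek, the relatives under the filter and the overlapping rows fall outside that rule. They were named after their values were seen. No library was treated as a copy of another (chi-square per degree of freedom 18.1 to 633 between replicates). Same-numbered libraries deviated together (correlation across genes 0.160, 0.261 and 0.181 for numbers 1, 2 and 3; -0.161 to -0.0138 for others), so the numbers pair the samples by that check. The fit reported has no block, and the blocked fit is an alternative. The pairing comes from the numbers in the titles, which the labels do not tie to mice. Alternatives were other scalings, filters and tests (DESeq2 1.42.0, limma-voom 3.58.1), the replicate block, a muscle covariate and leaving out libraries; the ratios to list sums and the fit without both libraries numbered 2 were added after seeing the data. The fit was also run on simulated counts, with planted differences larger than those of the 10 factors and without pairing. That run does not speak to differences of the size seen here. Some genes that the naming rule selects are not reported here.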

Additional observations from a re-analysis of the deposited data

How the results depend on the processing

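The count of factors called lower, 1, moved to 2 with DESeq2 size factors, 0 under library totals alone, 3 with no filter, 5 with DESeq2's Wald test, 3 with the replicate block, 2 with the muscle covariate and 2 without both libraries numbered 2. It ranged from 1 to 2 over the fits that left out a single library, with 2 without non-radiated library 1 (Gata2 and Nfe2) or radiated library 2 (Gata1 and Gata2). No factor was called higher in any setting. The replicate block changed no call of a factor other than those of Gata1 and Nfe2. The count of all genes called, 1463, fell to 764 to 905 without radiated library 1 (764), non-radiated library 2 (819) or non-radiated library 1 (905), and to 779 without both libraries numbered 2; over single libraries its highest value was 1376. Log2 fold changes turned positive under library totals alone for Zfpm1 (0.13), Gfi1b (0.03), Lyl1 (0.10), Runx1 (0.15) and Klf1 (0.14) where the median of all genes moved to 0.19. With the rows AY036118 and Gm26917 left out of the totals these log2 fold changes were negative. The count of factors called lower was then 1. Without single libraries Klf1 ran from -0.20 to 0.02. The ratio of Fli1 to Gata1 ran from -0.02 to 0.25 on the log2 scale, and the ratios to the erythroid list without haemoglobin genes ran from -0.03 to 0.10 for Zfpm1, from -0.07 to 0.06 for Lyl1 and from -0.05 to 0.07 for Klf1. The cause of these moves was not tested. Under library totals alone the upstream receptors and kinases had 1 call in place of 3, and the endothelial list and the family relatives had 0; without both libraries numbered 2 the receptors and kinases had 1. Of 384 list counts and medians under alternatives 71 moved. With 3 libraries a group, the 95% intervals of 5 factors included 0, so these libraries do not resolve their direction.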
